A study of Mus musculus with 8 samples.

Results

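Chemokines are small secreted proteins that guide leukocytes and other cells, and 10 of their genes with transcripts in the heart are described here: Cxcl12, Cxcl14, Cxcl1, Cxcl9, Cx3cl1, Ccl11, Ccl2, Ccl8, Ccl6 and Ccl9. They are a named list of 10 among the 49315 genes of the deposited count table, matched by Ensembl ID and symbol, and all 10 passed the filter on low counts. RNA sequencing was done on whole-tissue RNA of hearts from C57BL/6 mice, a standard inbred strain, aged 8 weeks, and the 8 libraries comprise 4 male and 4 female ones. The labels give no treatment, genotype, batch or part of the heart, and do not state how many animals the libraries represent, so that p-values measure the spread between these libraries. The comparison asks whether the chemokine transcripts of the heart differ between the sexes.

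A chemokine gradient is read by G protein-coupled receptors on the responding cell, while atypical receptors bind chemokines without G protein signalling and take them out of the tissue. The families are named after the spacing of the first cysteines of the mature protein: adjacent in CC chemokines, separated by another residue in CXC chemokines and by several in the CX3C family. Homeostatic chemokines such as Cxcl12 are made in resting tissue by stromal and vascular cells, whereas inflammatory ones such as Ccl2, Cxcl1 and Cxcl9 are induced by cytokines, and in the injured heart they draw monocytes, neutrophils and T cells.

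The coding sequence around these cysteines is shown here, with the pair located by the spacing that each gene's family name gives. In each gene it is the first such pair past the start of the coding sequence. The stretches below are given for the 3 genes that differed between the sexes (Cxcl12, Cxcl14 and Ccl11), for the CX3C gene and for the neighbouring genes Ccl6 and Ccl9. They run 5′ to 3′ on the coding strand, with 5 codons on each side of the motif, and capitals mark the family's cysteine codons.
Cxcl12: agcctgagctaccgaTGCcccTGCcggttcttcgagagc
Cxcl14: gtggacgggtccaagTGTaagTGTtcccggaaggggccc
Cx3cl1: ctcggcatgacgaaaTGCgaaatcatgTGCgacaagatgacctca
Ccl11: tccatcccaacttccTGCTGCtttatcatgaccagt
Ccl6: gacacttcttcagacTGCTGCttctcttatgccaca
Ccl9: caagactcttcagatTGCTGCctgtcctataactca
The sequences come from the GENCODE M21 transcripts on GRCm38, the build that the submitters' processing notes name. The stretches lie at chr6:117171493-117171531 on the + strand for Cxcl12, chr13:56295900-56296116 on the - strand for Cxcl14, where an intron interrupts it, and chr8:94778036-94778080 on the + strand for Cx3cl1. Those of the CC genes lie at chr11:82061681-82061716 on the + strand for Ccl11, chr11:83589371-83589406 on the - strand for Ccl6 and chr11:83575911-83575946 on the - strand for Ccl9. By this choice the motif has 1 codon between the cysteine codons in Cxcl12 and Cxcl14, 3 in Cx3cl1 and 0 in the CC genes. Ccl6 and Ccl9 each hold 6 cysteine codons in all, against 4 in Ccl11 and 4 in Ccl2.

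Expression is given as CPM, library-scaled counts after trimmed mean of M-values (TMM) normalization, and fold changes are male over female from edgeR's quasi-likelihood test, with p-values adjusted by Benjamini-Hochberg across the 16180 genes tested. A gene is called at an adjusted p below 0.05. Library totals ran from 39612848 to 47097765 counts in males and from 32746054 to 35467832 in females, so depth moved with sex, and 1 count was worth 0.0218 to 0.0302 CPM. Myh6, Tnnt2, Actn2, Ryr2 and Pln, markers of cardiomyocytes, summed to 53300 to 60600 CPM in males and 58000 to 61200 CPM in females, so that the labelled tissue shows in every library. No exon of the 10 genes overlapped an exon of another annotated gene. Of all 50-base stretches of their transcripts, 2% in Ccl9, 0.493% in Cxcl9 and 0% in the other 8 also occurred in transcripts of another gene, none of them a listed chemokine.

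The sexes differed in 3 of the 10 chemokines. Ccl11 and Cxcl14 were higher in males and Cxcl12 was lower in males, while 7 were not called. Over all genes tested, 3.79% were called, 2.03% higher and 1.76% lower in males. The median log2 fold change, male minus female, was 0.46 over the 10 genes and 0 over all genes tested. Libraries of the sexes were fully separated in the same 3 of 10 genes, beside 12.0% of all genes tested (6.39% with every male higher and 5.66% with every male lower), and 7 of the 10 fold changes were positive, beside 49.7% of all genes tested. The 10 genes were chosen with earlier results of these data known, so these shares are no result about chemokines as a family. Among the 11 other chemokine ligands tested, 0 were called and the median log2 fold change was 0.02.

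**Figure D1:**
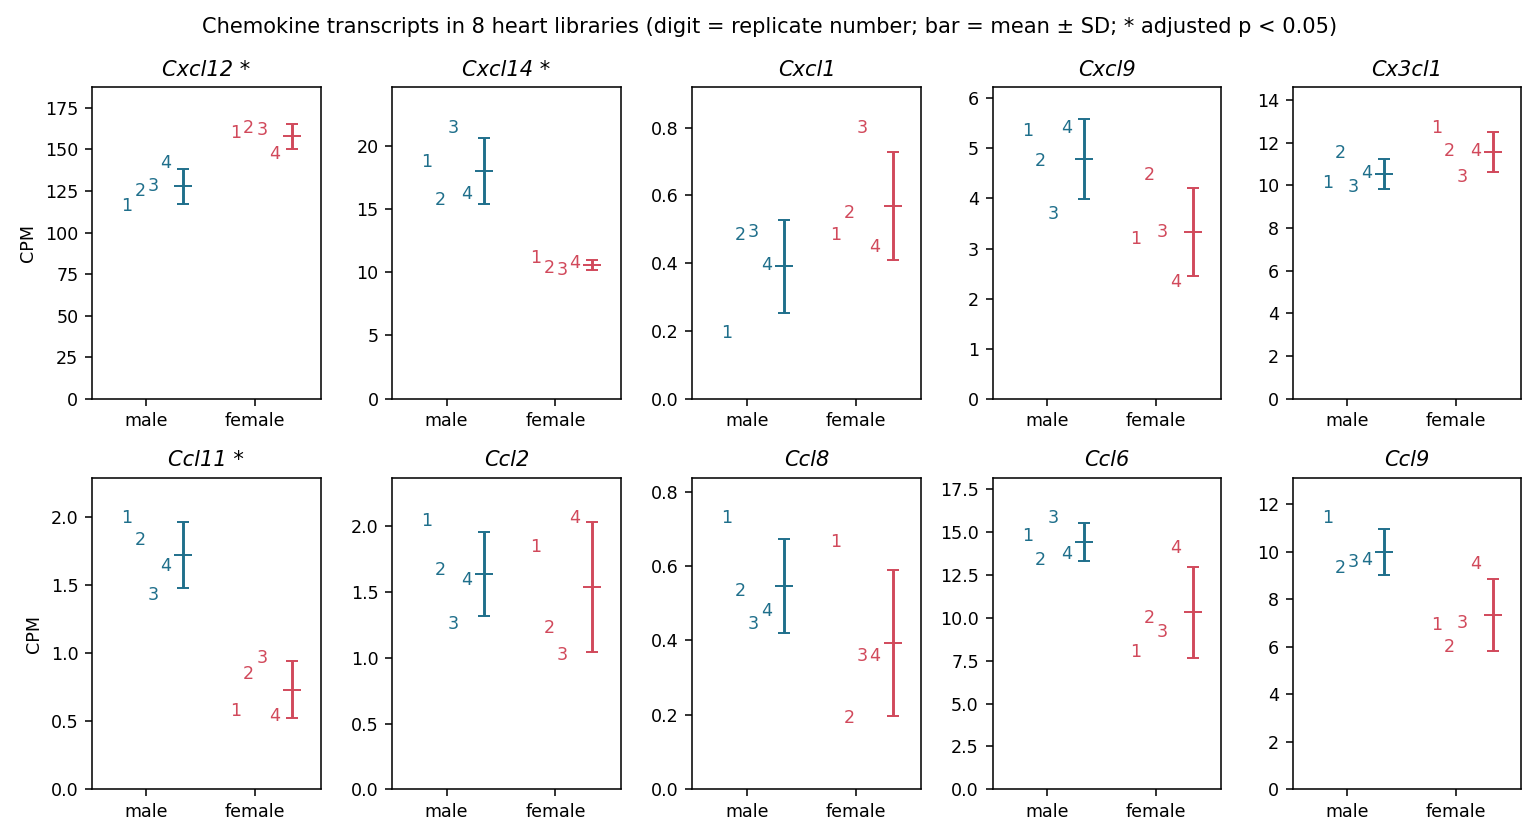
CPM of the 10 chemokine genes in the 4 male and 4 female heart libraries, on axes that start at 0, where each digit is a library by its replicate number and bars give the mean and SD of a sex. Every male value lies above every female value for Ccl11 and Cxcl14 and below every female value for Cxcl12, and in the other 7 genes the sexes overlap.

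Levels of different genes were compared per exon length, as RPKM (CPM per kilobase of the summed exon length in the deposited tables). Cxcl12 was the most abundant of the 10 at 15.7 ± 1.34 RPKM in males and 19.3 ± 0.912 RPKM in females (SD, n = 4 each, as throughout). Cxcl14 followed with 9.86 ± 1.43 RPKM in males and 5.79 ± 0.234 RPKM in females, and Ccl6 with 8.04 ± 0.611 RPKM in males and 5.74 ± 1.47 RPKM in females. In both sexes the ranges of Cxcl14 and Ccl6 overlapped, so their order is within the spread of the libraries. Ccl9 at 3.28 ± 0.318 RPKM in males and 2.41 ± 0.493 RPKM in females and Cx3cl1 at 2.68 ± 0.182 RPKM in males and 2.94 ± 0.241 RPKM in females exchanged places between the sexes, with ranges apart in males and overlapping in females.

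The other 5 genes lay below 2 RPKM in every library. In males, Ccl11 averaged 1.59 ± 0.223, Cxcl9 1.59 ± 0.265, Ccl2 1.44 ± 0.279 and Ccl8 1.07 ± 0.247 RPKM, with overlapping ranges. In females, Ccl2 averaged 1.35 ± 0.432, Cxcl9 1.1 ± 0.292, Ccl8 0.769 ± 0.385 and Ccl11 0.676 ± 0.193 RPKM. Ccl11 thus stood level with Ccl2 and Cxcl9 in males and at the low end of these 4 genes in females. Cxcl1 had the lowest mean in both sexes and overlapped with Ccl8 in females, at 0.208 ± 0.0736 RPKM in males and 0.304 ± 0.0846 RPKM in females. RPKM divides by all annotated exons, which understates genes of which the heart uses a short transcript, and the transcript used was not examined.

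**Figure D2:**
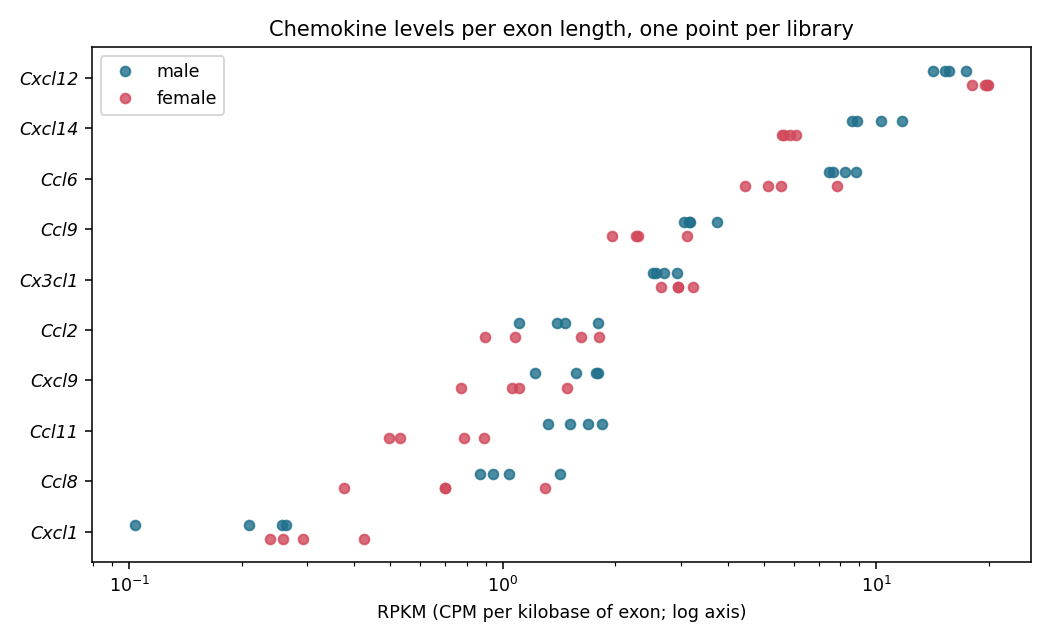
RPKM of the 10 genes on a log axis, 1 point per library, with males above females in each row. Cxcl12 lies highest, between 14.2 and 17.4 RPKM in males and between 17.9 and 19.9 RPKM in females, and Cxcl1 has the lowest mean.

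Cxcl12 (ENSMUSG00000061353, chr6:117168535-117181367, + strand), or stromal cell-derived factor 1, holds haematopoietic cells in their niche and guides vessel growth. It had 116, 125, 128 and 142 CPM in the male libraries and 160, 163, 162 and 147 CPM in the female ones. Every male value was below every female value, though the highest male library and the lowest female library lay close together. It averaged 128 ± 10.9 CPM in males and 158 ± 7.46 CPM in females, a fold of 0.812 (95% interval 0.743 to 0.887, log2 fold change -0.3, SE 0.06, adjusted p = 0.018). The call was lost without female replicate 2 (adjusted p = 0.051) and without female replicate 3 (0.052).

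Markers of fibroblasts are given beside Cxcl12, which these cells are known to make. Of 7 fibroblast markers, 0 were higher and 1 was lower in males, with 7 of 7 log2 fold changes negative and a median of -0.16. They summed to 828 to 948 CPM in males and 979 to 1000 CPM in females, without overlap. The gene called was Lum, which encodes the matrix proteoglycan lumican, at 44.7 ± 4.35 CPM in males and 70.7 ± 3.18 CPM in females (log2 fold change -0.66, adjusted p = 0.00028). At an unadjusted p below 0.05 there were 5 fibroblast markers, and DESeq2 called 3 and limma-voom 1. Cxcl14 and Ccl11, also called, were higher in males (log2 fold change 0.77 and 1.22), opposite in direction to these markers. The part of fibroblasts in the results for Cxcl12, Cxcl14 and Ccl11 was not tested. In RNA of whole tissue, fewer cells of a type and less RNA per cell cannot be told apart.

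Cxcl14 (ENSMUSG00000021508, chr13:56288647-56296551, - strand) encodes a chemokine that epithelial and stromal cells make constitutively. It had 18.7, 15.7, 21.4 and 16.2 CPM in males and 11.1, 10.3, 10.2 and 10.7 CPM in females. The male libraries were all higher and also more widely spread than the female ones. It averaged 18 ± 2.61 CPM in males and 10.6 ± 0.427 CPM in females, 1.7-fold higher in males (95% interval 1.48 to 1.96, log2 fold change 0.77, SE 0.09, adjusted p = 0.0012). Cxcl12 and Cxcl14 therefore differed between the sexes in opposite directions.

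The inducible CXC genes were not called. Cxcl9 (ENSMUSG00000029417, chr5:92321347-92328079, - strand), an interferon-gamma-induced ligand that attracts activated T cells through Cxcr3, had 5.34, 4.74, 3.68 and 5.41 CPM in males and 3.2, 4.47, 3.33 and 2.33 CPM in females. The sexes overlapped through male replicate 3 and female replicate 2 (fold 1.43, 95% interval 1.09 to 1.89, adjusted p = 0.14). Ifng itself had at most 2 counts in a library and was not tested, and Cxcl10, another interferon-induced Cxcr3 ligand, averaged 0.374 ± 0.198 CPM in males and 0.469 ± 0.181 CPM in females (adjusted p = 0.7). Exons of Cxcl10 overlap those of the abundant gene Art3 on the other strand, and since the strand setting is not given in the sources used here, reads of these genes cannot be told apart.

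Cxcl1 (ENSMUSG00000029380, chr5:90891241-90893115, + strand) attracts neutrophils through Cxcr2. It had 8, 19, 21 and 18 counts in the male libraries and 16, 20, 29 and 15 counts in the female ones, so that counting error is a large part of its spread. It averaged 0.39 ± 0.138 CPM in males and 0.569 ± 0.159 CPM in females, with overlap (fold 0.684, 95% interval 0.432 to 1.08, adjusted p = 0.35). No difference was detectable at this depth.

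Cx3cl1 (ENSMUSG00000031778, chr8:94772009-94782427, + strand) encodes fractalkine, a membrane-bound chemokine of endothelial and other cells that the proteases Adam10 and Adam17 can shed. It had 10.1, 11.5, 9.91 and 10.6 CPM in males and 12.7, 11.6, 10.4 and 11.6 CPM in females. The sexes overlapped, and the spread was small (fold 0.912, 95% interval 0.814 to 1.02, adjusted p = 0.36). Adam10 at 38.4 ± 1.49 CPM in males and 39.8 ± 1.6 CPM in females and Adam17 at 40.2 ± 0.288 CPM in males and 39.9 ± 1.21 CPM in females were not called either.

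The CC genes fall into clusters on chromosome 11. Ccl2, Ccl7, Ccl11, Ccl12 and Ccl8 lie in this order on the + strand, with the starts of Ccl2 and Ccl8 79.6 kb apart. Ccl11 (ENSMUSG00000020676, chr11:82057823-82062955) encodes eotaxin, which attracts eosinophils through Ccr3. It had 1.99, 1.83, 1.43 and 1.64 CPM in males and 0.573, 0.85, 0.964 and 0.537 CPM in females. All 4 male libraries were higher, from 290 counts in all males and 103 in all females. It averaged 1.72 ± 0.242 CPM in males and 0.731 ± 0.209 CPM in females, 2.33-fold higher in males (95% interval 1.71 to 3.17, log2 fold change 1.22, SE 0.2, adjusted p = 0.0091), the largest fold change of the 10 genes.

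Eosinophils themselves left almost no signal. Their 4 markers Siglecf, Epx, Prg2 and Ear6 summed to 0.0218 to 0.17 CPM in males and 0.0822 to 0.138 CPM in females, with Ear6 at 0 counts in all 8 libraries, and 0 of the 4 passed the filter. Ccr3 had 1 count over all males and 7 counts over all females. The markers and the receptor of these cells were thus at or near 0 in both sexes, while Ccl11 was higher in males.

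The neighbours of Ccl11 did not pass the test. Ccl2 (ENSMUSG00000035385, chr11:82035571-82037453), the main ligand of Ccr2 on inflammatory monocytes, had 2.04, 1.67, 1.26 and 1.59 CPM in males and 1.84, 1.23, 1.02 and 2.06 CPM in females. Values were mixed between the sexes (fold 1.07, 95% interval 0.761 to 1.51, adjusted p = 0.86), and the sign of the log2 fold change turned when single libraries were left out. Ccl8 (ENSMUSG00000009185, chr11:82115185-82116799), a ligand of Ccr8 in mice, had 30, 21, 19 and 22 counts in males and 22, 7, 13 and 12 counts in females. It averaged 0.546 ± 0.126 CPM in males and 0.393 ± 0.197 CPM in females (fold 1.4, 95% interval 0.851 to 2.3, adjusted p = 0.46).

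Ccl7, a further Ccr2 ligand between Ccl2 and Ccl11, had 1.04, 1.09, 0.937 and 1.13 CPM in males and 0.875, 0.767, 0.578 and 0.805 CPM in females. Its sexes did not overlap, and its adjusted p was 0.16. Ccl12 averaged 0.615 ± 0.303 CPM in males and 0.587 ± 0.281 CPM in females (adjusted p = 0.93). Of the 5 tested genes of this cluster, Ccl11 was the only one called, and differences of fold change between the genes were not tested.

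**Figure D3:**
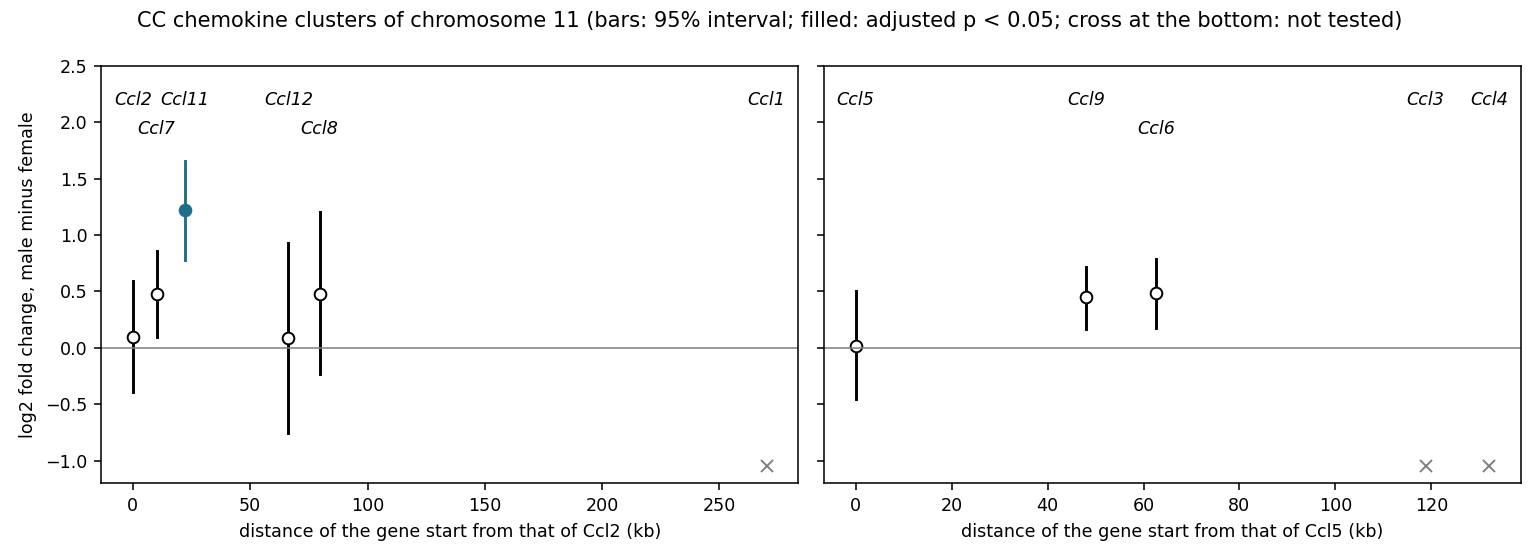
Log2 fold changes, male minus female, with 95% intervals along both CC clusters of chromosome 11, against the distance of each gene start from that of Ccl2 (left) or Ccl5 (right) in kb. Ccl11 at 22.3 kb is filled as the gene called, Ccl9 at 48.1 kb and Ccl6 at 62.6 kb lie side by side above 0, and crosses mark genes that were not tested.

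Ccl6 and Ccl9 lie in the other cluster with their starts 14.5 kb apart, and both encode ligands of Ccr1 that mouse myeloid cells make without stimulation. Ccl6 (ENSMUSG00000018927, chr11:83587882-83593087, - strand) had 14.8, 13.4, 15.8 and 13.7 CPM in males and 8, 9.98, 9.2 and 14.1 CPM in females. Ccl9 (ENSMUSG00000019122, chr11:83572919-83578636, - strand) had 11.4, 9.3, 9.58 and 9.64 CPM in males and 6.91, 5.97, 7 and 9.48 CPM in females. In both genes female replicate 4 alone reached the male values, and the other 3 female libraries lay below all males.

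Neither gene passed the test. Ccl6 averaged 14.4 ± 1.1 CPM in males and 10.3 ± 2.64 CPM in females (fold 1.4, 95% interval 1.13 to 1.73, log2 fold change 0.49, SE 0.14, adjusted p = 0.081). Ccl9 averaged 9.99 ± 0.969 CPM in males and 7.34 ± 1.5 CPM in females (fold 1.36, 95% interval 1.13 to 1.65, log2 fold change 0.45, SE 0.13, adjusted p = 0.077). Without female replicate 4 both were called, at adjusted p = 0.0045 for Ccl6 and 0.013 for Ccl9, and with each of the other 7 libraries left out neither was. They were also called by DESeq2, at adjusted p = 0.0085 for Ccl6 and 0.013 for Ccl9. Ccl5, the T cell gene at the start of the same cluster, averaged 0.643 ± 0.131 CPM in males and 0.629 ± 0.112 CPM in females (adjusted p = 0.97).

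Markers of macrophages are given beside Ccl6 and Ccl9, which these cells are known to make. Of 10 macrophage markers, 1 was higher and 0 were lower in males, 8 of 10 log2 fold changes were positive and the median was 0.28. They summed to 492, 304, 301 and 298 CPM in males and to 287, 251, 280 and 289 CPM in females. All males were higher, male replicate 1 by far. The gene called was the scavenger receptor gene Cd163, at 26.2 ± 1.24 CPM in males and 20.5 ± 2.91 CPM in females (adjusted p = 0.044); leaving out single libraries kept this call in 1 of 8 cases, with adjusted p up to 0.12. The macrophage sum of female replicate 4, the female library highest in Ccl6 and Ccl9, was level with that of female replicate 1, which had the lowest Ccl6 of all libraries. Female replicate 4 had the highest sums of the 8 libraries for B cell markers (16.7 CPM), monocyte markers (6.98 CPM) and red cell genes (8800 CPM). Male replicate 3, with the highest Ccl6 of all libraries (15.8 CPM), had the lowest sums for B cell markers (3.19 CPM) and monocyte markers (2.18 CPM). Its red cell sum was 2520 CPM, and the lowest was 555 CPM in female replicate 2, the library with the lowest Ccl9 (5.97 CPM). The part of these cells in the values was not tested.

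The receptors of these ligands gave no call. Of 23 chemokine receptor genes, 15 were tested, and edgeR called 0 higher and 0 lower in males, with 3 at an unadjusted p below 0.05 and with 0 called by DESeq2 or limma-voom. Their median log2 fold change was -0.1. Ackr3, the atypical receptor that removes Cxcl12, was the most abundant at 23.3 ± 1.6 RPKM in males and 23.4 ± 2.47 RPKM in females, and its fold of male over female had a 95% interval of 0.891 to 1.11. Cxcr4, through which Cxcl12 signals, had 6.45, 6.41, 6.65 and 6.06 CPM in males and 4.01, 5.32, 5.81 and 5.31 CPM in females. Cxcr4 did not overlap between the sexes and had the smallest p of the receptors together with Ackr4 (adjusted p = 0.13 for each), in the direction opposite to Cxcl12.

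Other tested receptors of these ligands were not called either. Ccr1, the receptor of Ccl6 and Ccl9, averaged 0.559 ± 0.213 CPM in males and 0.852 ± 0.249 CPM in females (adjusted p = 0.29). Ccr2 averaged 1.49 ± 0.255 CPM in males and 1.58 ± 0.353 CPM in females (adjusted p = 0.86). Ackr2, which scavenges inflammatory CC chemokines such as Ccl2 and Ccl11, averaged 2.08 ± 0.521 CPM in males and 2.23 ± 0.116 CPM in females (adjusted p = 0.79). Cx3cr1, the fractalkine receptor of macrophages, had 10.9, 3.62, 3.63 and 4.99 CPM in males and 6.58, 8.5, 3.28 and 4.03 CPM in females (adjusted p = 0.96). Cxcr2, Cxcr3, Ccr8 and Ackr1 were below the filter, with 12, 39, 1 and 32 counts over all males and 23, 39, 2 and 32 counts over all females.

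**Figure D4:**
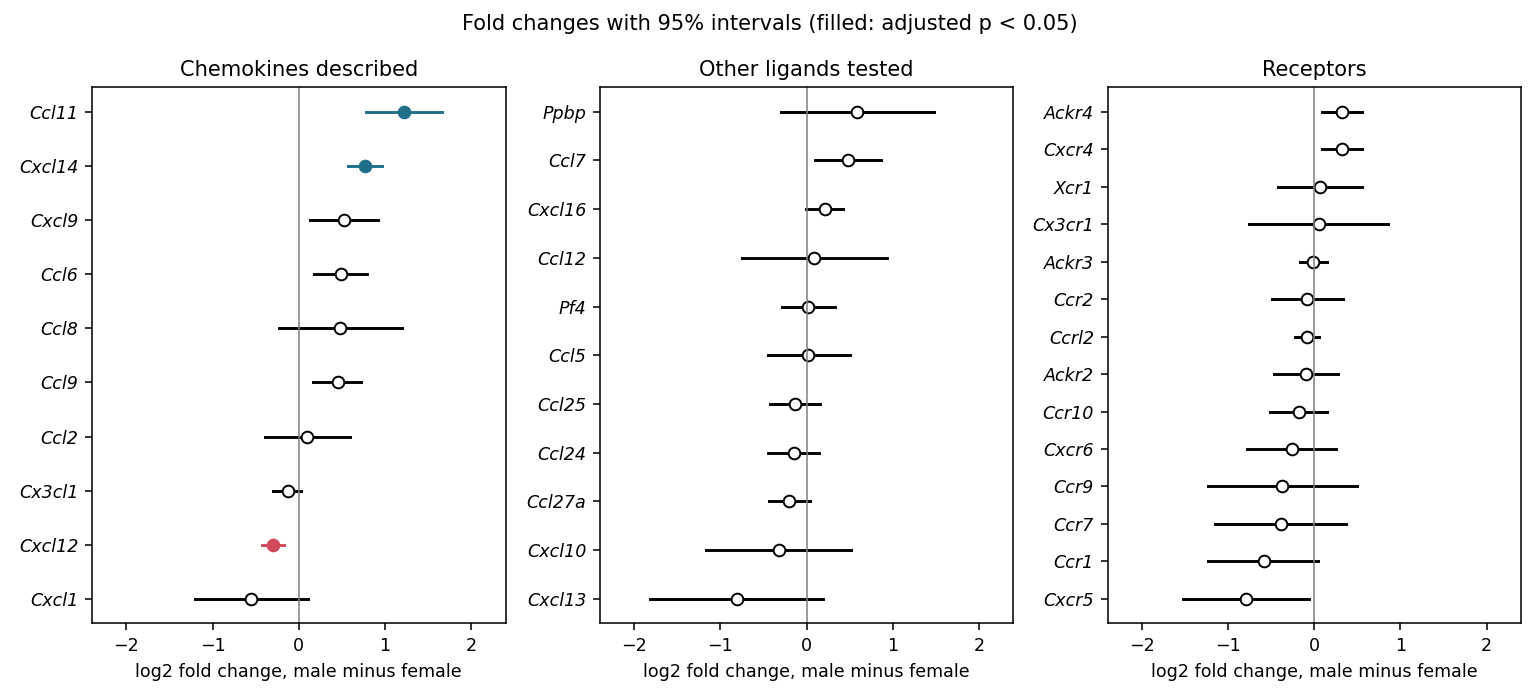
Log2 fold changes, male minus female, with 95% intervals for the 10 chemokines, the 11 other ligands tested and 14 of the 15 receptors tested, where filled points passed an adjusted p of 0.05. Ccl11, Cxcl14 and Cxcl12 are the filled points, and no other ligand or receptor shown is filled.

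Of 28 further chemokine ligand genes, 11 passed the filter and edgeR called 0 of them, with 1, Ccl7, at an unadjusted p below 0.05 and with 0 called by DESeq2 or limma-voom. Their median log2 fold change was 0.02. The most abundant were the platelet chemokines Pf4, at 22.3 ± 4.09 RPKM in males and 21.9 ± 3.7 RPKM in females, and Ppbp, at 11.9 ± 4.99 RPKM in males and 7.88 ± 4.77 RPKM in females. Cxcl16, a membrane-bound ligand of Cxcr6, followed with 3.38 ± 0.45 RPKM in males and 2.93 ± 0.267 RPKM in females (adjusted p = 0.29); its exons overlap those of Zmynd15 on the other strand. The mean RPKM of Pf4 was above that of Cxcl12, the highest of the 10 genes, in both sexes.

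Among 18 inducers and regulators of chemokine transcription, 14 were tested, 0 were higher and 2 were lower in males, and the median log2 fold change was -0.09. Dusp1, a phosphatase gene that dampens MAP kinase signalling, had 69.7, 71.6, 82.3 and 73.5 CPM in males and 98.5, 99.6, 104 and 100 CPM in females, lower in every male library (log2 fold change -0.44, adjusted p = 0.00095). Nr3c1, which encodes the glucocorticoid receptor, averaged 65.9 ± 2.61 CPM in males and 74.5 ± 2.62 CPM in females (log2 fold change -0.18, adjusted p = 0.035), and leaving out single libraries kept its call in 2 of 8 cases, the adjusted p reaching 0.11 without male replicate 3. The NF-kappaB genes Nfkb1, Rela and Nfkbia had adjusted p of 0.54, 0.38 and 0.17, and the interferon-induced factor gene Irf1 of 0.39. Of 11 genes of chemokine processing and binding, 10 were tested and edgeR called 0, with 5 at an unadjusted p below 0.05, 3 called by DESeq2 and 0 by limma-voom. The smallest p was that of Ndst1, which modifies the heparan sulfate that holds chemokines at the vessel wall, at 69 ± 2.82 CPM in males and 78.6 ± 4.65 CPM in females (adjusted p = 0.054).

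Other cell types gave these values. Of 6 white adipocyte markers, 0 were higher and 6 were lower in males, with sums of 13 to 39.3 CPM in males and 69.7 to 129 CPM in females. Fat tissue markers thus moved with sex, in the direction of Cxcl12 and opposite to Cxcl14 and Ccl11. The part of fat tissue in the 3 chemokine calls was not tested. Of 6 endothelial markers 1 was higher (Tie1, adjusted p = 0.045, called in 1 of 8 cases with a library omitted) and 0 were lower in males, with sums of 790 to 868 CPM in males and 755 to 880 CPM in females. Kdr and Tek were lower in every male library without a call (log2 fold change -0.26 and -0.11, adjusted p = 0.062 and 0.16). Of the 6 log2 fold changes, 4 were positive. At an unadjusted p below 0.05 there were 3 endothelial markers, and DESeq2 called 2 and limma-voom 1. Of 6 pericyte and smooth muscle markers 1 was higher (Rgs5, adjusted p = 0.017, called in 7 of 8 such cases and at 0.059 without male replicate 3) and 1 lower (Acta2, adjusted p = 0.032, called in 2 of 8), with sums of 1060 to 1120 CPM in males and 1060 to 1140 CPM in females. Of 3 tested neutrophil markers 0 were higher and 1, S100a9, was lower in males, at 0.28 ± 0.138 CPM in males and 1.36 ± 0.51 CPM in females (adjusted p = 0.0063). S100a9 had 47 counts over all males and 188 over all females. S100a8 was also negative without a call (log2 fold change -1.6, adjusted p = 0.12). Csf3r went the other way without a call (log2 fold change 0.64, adjusted p = 0.32), highest in male replicate 1 at 4.63 CPM. By edgeR, 0 genes were called among the tested markers of monocytes (5), T cells (7), NK cells (1), B cells (5), mast cells (4), lymphatic endothelium (4), cardiomyocytes (5), mesothelium (5) and red cells (5). At an unadjusted p below 0.05 there were 2 monocyte and 2 lymphatic markers and 0 in the others of these lists, DESeq2 called 1 monocyte and 1 lymphatic marker, and limma-voom called 1 lymphatic marker.

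The calls differed in how much they depended on single libraries and on the test. Cxcl14 and Ccl11 were called under all 17 alternatives, with adjusted p of at most 0.02 for Cxcl14 and 0.039 for Ccl11. Cxcl12 was called under 14 of 17, and Ccl6 and Ccl9 each under 3 of 17. Cxcl9 was called under 0 of 17, with adjusted p from 0.059 to 0.25.

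**Figure D5:**
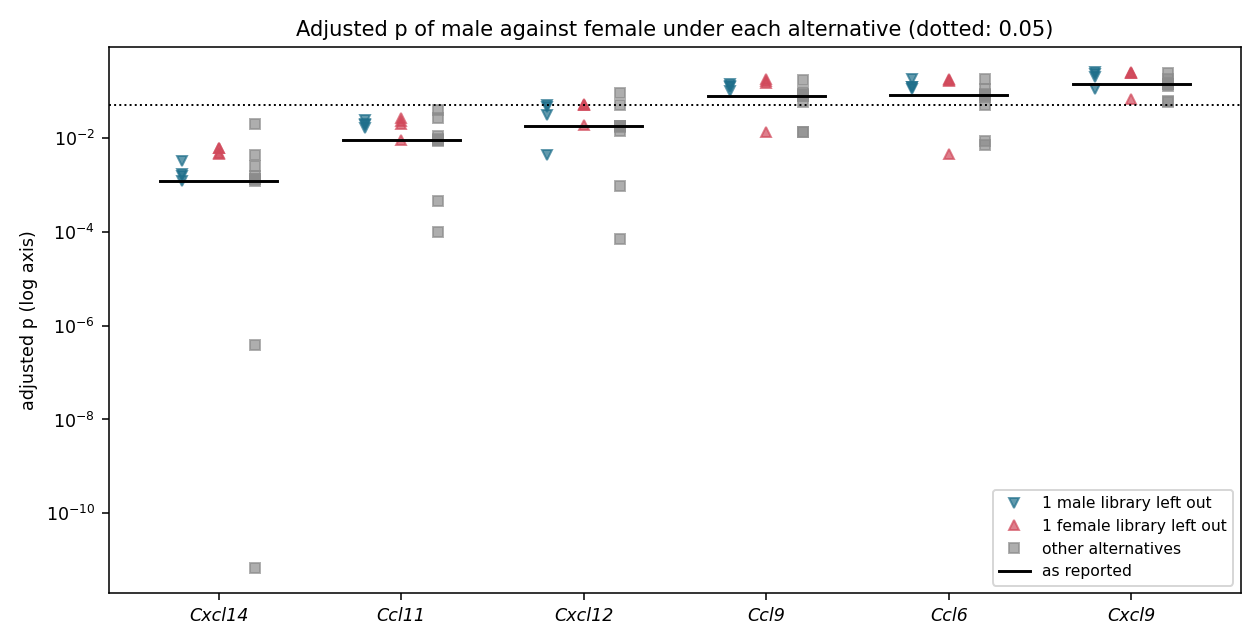
Adjusted p of male against female on a log axis for 6 chemokines, under fits with 1 male or 1 female library left out and under other alternatives, with a bar at the reported value and a dotted line at 0.05. All points of Cxcl14 and Ccl11 lie below the line, 14 of 17 do for Cxcl12, and 3 of 17 do for Ccl9 and Ccl6.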

How the data were processed

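The authors deposited raw counts per gene, made with Trimmomatic 0.36, STAR 2.5.2b, featureCounts and Subread 1.5.2 on GRCm38 (mm10), per the submitters' processing notes, which give no order. The annotation version, strand setting and handling of multimapping reads are not given in the sources used here. The deposited normalized signal differs from the counts by a constant scaling per library, as found from the values. Single-library tables held 100% the same counts and, per the file headers, the exon coordinates and summed exon length (in bases) used for RPKM.

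CPM was computed on TMM-scaled library sizes. Low counts were removed by filterByExpr with its minimum count set to 10 and its minimum total count set to 15. The minimum count need not be met in every library. Males were compared with females in edgeR 4.0.16 (R 4.3.3). Standard errors were derived from the fold change and its F statistic, and intervals use the degrees of freedom of that test. The alternatives were DESeq2 1.42.0, limma 3.58.1 (voom, and log2 of the signal plus 1), other scalings and filters, thinning, a replicate block and leaving out each library. The procedure was tested on simulated data. A symbol was found for 48970 of 49315 IDs.

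The members and gene lists were chosen with earlier results of these data known. All 10 members are named. Of the ligand, receptor, processing and regulator lists, called genes, tested receptors of a member and the smallest p where none was called are named, with the 3 most abundant other ligands and called cell markers; 1 tested receptor that this rule would name is not reported here. Genes named besides were chosen after their values were seen.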

Additional observations from a re-analysis of the deposited data

Results flagged for a closer look

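In 20 groups of 4 libraries (10 genes, 2 sexes), 2 held a library whose gap to its nearest neighbour took more than 0.829 of the group's range, where chance flags about 1 in 20 groups. Ccl9 in male replicate 1 was 11.4 CPM, against 9.3 to 9.64 CPM in the other 3 male libraries. Cxcl12 in female replicate 4 was 147 CPM, against 160 to 163 CPM in the other 3 female libraries. Without male replicate 1, Ccl9 had an adjusted p of 0.14, and without female replicate 4 Cxcl12 was still called (adjusted p = 0.019).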

How the results depend on the processing

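The count of all genes called was 613. It was 964 with DESeq2, 172 with limma on the deposited normalized signal, 427 with the replicate block and 315 to 490 with a library left out (315 without male replicate 3, 354 without female replicate 2 and 379 without female replicate 3), and the cause was not tested. The count of the 10 chemokines called, 3 as reported, was 5 without a filter and with DESeq2, where Ccl6 and Ccl9 joined, and 2 to 5 with a library left out (5 without female replicate 4). It was 2 with limma on the normalized signal, where Cxcl12 missed the threshold (adjusted p = 0.09), and 3 after thinning every library to the smallest library total. The count of other ligands was 1 without a filter and 0 to 1 with a library left out, the gene being Ccl28 each time, and that of receptors was 0 throughout. The log2 fold change of Ccl2 ran from -0.06 to 0.27 with a library left out, and was -0.02 without male replicate 1 and -0.06 without female replicate 3. No other sign turned among the 10 genes. Replicate numbers did not pair the sexes: the correlation of same-numbered libraries about their sex means lay between -0.047 and 0.054, and 0 of 4 male libraries correlated best with their own number. The block left the count of chemokines called at 3. Cxcl1 and Ccl8 fell below the filter of 1 CPM in 4 libraries and have no value there. Counts of 7 to 30 per library limit both.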

Other observations

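Ccl28, a mucosal chemokine below the filter, had 6, 4, 2 and 5 counts in the male libraries and 10, 9, 17 and 12 counts in the female ones, without overlap. It was called lower in males under 3 alternatives (adjusted p = 0.017 without a filter, 0.032 without male replicate 1 and 0.037 without female replicate 2) and it was chosen after its values were seen. Under some of the 17 alternatives it was below the filter and not tested.

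Male replicate 1 stood apart in several genes of macrophages, chosen after their values were seen. Tnf had 44, 3, 9 and 14 counts in the male libraries and 5, 5, 3 and 2 counts in the female ones. Ccl3 had 22, 7, 5 and 6 counts in males and 3, 2, 3 and 7 counts in females, and its neighbour Ccl4 15, 2, 2 and 3 counts in males and 3, 1, 2 and 5 counts in females. The macrophage marker Adgre1 was at 62.8, 13.9, 11.3 and 11.6 CPM in males and 10.9, 11.7, 13.2 and 12.2 CPM in females. The markers C1qa, C1qb and C1qc also stood apart there. Cd68 (9.41 CPM), Csf1r (73.6 CPM) and Fcgr1 (3.88 CPM) were highest there as well. Their highest values in any other library were 7.88, 62.1 and 3.08 CPM. The macrophage markers Mrc1, Cd163 and Timd4 did not stand apart. Mrc1 had 29.9, 29.5, 27.9 and 29.2 CPM and Cd163 had 27.5, 25, 25.3 and 27 CPM in the male libraries. Cxcl13, a B cell chemoattractant, was at 0.776, 0.583, 0.632 and 0.654 CPM in males and 2.29, 0.603, 0.331 and 1.49 CPM in females, high in female replicates 1 and 4.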
